A study of Triticum aestivum with 4 samples.

Results

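SAHH and PEAMT1 are a pair of enzyme genes on either side of one methylation step, and both are described here in wheat flag leaves after heat. Their probe sets were found by name: a probe set was taken when the symbol of its annotated gene, or a synonym of that gene in the RefSeq gene table, was SAHH or PEAMT1. This gave 2 of the 771 annotated genes, and 3 of the 61179 probe sets that are not AFFX controls. Of these, 2 belong to SAHH (gene ID 543491), Ta.1258.1.S1_a_at and Ta.1258.2.S1_x_at, and 1 belongs to PEAMT1 (LOC543067), Ta.1842.1.S1_a_at. The pair was chosen because earlier work on the same arrays had shown one gene lower and the other higher in heat. The difference between heat and control is therefore given as a description of these genes and carries no p-value.

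The study asked how the transcriptome of the flag leaf, the topmost leaf below the ear, responds to heat. Heat flag leaves (2 arrays) came from plants of the cultivar TAM 107 kept for 1 h at 40 °C in a growth chamber, and control flag leaves (2 arrays) came from unstressed plants of the same cultivar. All plants had been lifted from the field into pots shortly before flowering, and all leaves were taken at 10 days after pollination. Whether control plants entered a chamber too is not stated, so effects of temperature and of the transfer cannot be told apart. Nor is it stated whether replicates were separate plants, so errors here measure the spread between arrays, which may be technical. Each SD is that of the probe set itself. Each SE of the limma fit also borrows from the spread of the other probe sets, so it can differ from that of the probe set alone.

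S-adenosylmethionine is the methyl donor of most methylation reactions in plant cells, and each transfer of its methyl group leaves S-adenosylhomocysteine behind. SAHH, adenosylhomocysteinase, splits this by-product into adenosine and homocysteine; homocysteine is then turned back into methionine, which closes the methyl cycle. The by-product inhibits many methyltransferases, so SAHH activity is known as a condition for methylation to go on. PEAMT1, phosphoethanolamine N-methyltransferase, is a heavy user of the donor: it adds methyl groups one after another to phosphoethanolamine and gives phosphocholine. Phosphocholine feeds the membrane lipid phosphatidylcholine and, through free choline, glycine betaine, an osmoprotectant that some cereals accumulate under stress.

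The leaf identity of the samples was checked by its markers. The brightest probe sets of rbcL, PsbO, PsbP and PRK, genes of carbon fixation and photosystem II, had mean signals between 42039 and 59912 in heat leaves and between 32960 and 44644 in control leaves. Of all 32 probe sets of these 4 genes, 16 were bright enough to be tested, and the dimmer ones left out were all of rbcL. Among tested grain storage genes, the gliadin gene gli-2 averaged 125 in heat and 147 in control leaves, and the glutenin gene abu-7 averaged 196 and 147 in the same order. The brightest probe set of the avenin-like gene ALP averaged 7817 in heat and 7920 in control leaves, so grain markers were not uniformly dim. Its other probe sets were dim and not tested, with means of 10.3, 39.8 and 64.9 in heat leaves. In control leaves these averaged 7.29, 55.5 and 11.3, in the same order, so the bright signal rests on that probe set alone.

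SAHH, the enzyme that clears the by-product, was lower in heat leaves on both of its probe sets. On the brighter probe set, Ta.1258.1.S1_a_at, the signal was 8928 and 9363 on the heat arrays, against 15498 and 16164 on the control arrays. The groups did not overlap, and replicates within a group differed far less than the groups did, by 1.05-fold in heat and 1.04-fold in control. With 2 arrays a group, full separation has a two-sided exact permutation p of 0.333 for any probe set. The share of all tested probe sets that separate in this way is not given. Separation is therefore not read as a trait of these genes or of any probe set described below. The means were 9146 ± 307 in heat and 15831 ± 471 in control (SD, n = 2 each), a log2 difference of -0.79 ± 0.05 (SE of the limma fit). Over the 4 possible pairs of a heat and a control array, the control signal was 1.66 to 1.81 times the heat signal.

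The second SAHH probe set, Ta.1258.2.S1_x_at, stood at a lower signal and showed the same direction. It read 2456 and 2649 on the heat arrays, against 4939 and 5072 on the control arrays. Again no heat array reached a control array. The means were 2552 ± 137 in heat and 5005 ± 94.3 in control (SD, n = 2 each), a log2 difference of -0.97 ± 0.07 (SE), and the control signal was 1.86 to 2.07 times the heat signal over the array pairs.

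PEAMT1, which uses the methyl donor to build phosphocholine, was higher in heat leaves on its single probe set. Ta.1842.1.S1_a_at read 3386 and 3815 on the heat arrays, against 1994 and 2324 on the control arrays. The lowest heat array lay above the highest control array, but replicates of PEAMT1 were less tight than those of SAHH, at 1.13-fold apart in heat and 1.17-fold apart in control. The means were 3600 ± 303 in heat and 2159 ± 234 in control (SD, n = 2 each), a 1.67-fold higher signal in heat with a log2 difference of 0.74 ± 0.10 (SE). Depending on which heat array is set against which control array, the fold ran from 1.46 to 1.91. The wheat gene table also lists PEAMT2; no probe set is annotated to it in the table used here, and it was not analysed.

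**Figure D1:**
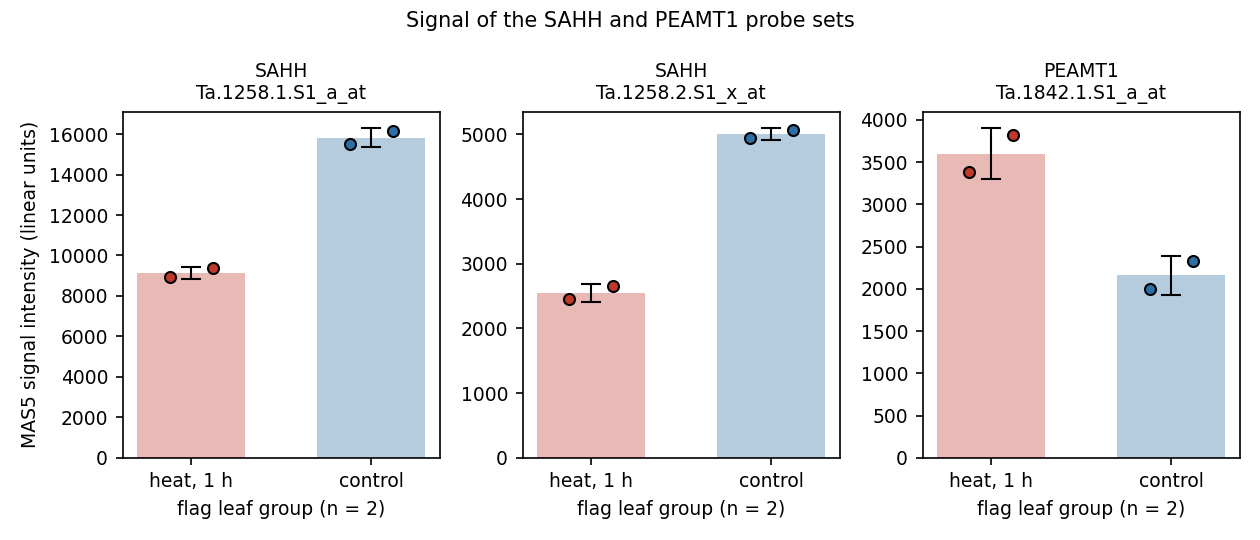
MAS5 signal intensity (linear units, axis from 0) of the 3 probe sets in heat and control flag leaves; points are single arrays, bars are group means and whiskers are SD (n = 2 each). Both SAHH probe sets are lower in heat (means 9146 against 15831, and 2552 against 5005) and PEAMT1 is higher (3600 against 2159). Groups do not overlap, but the share of all tested probe sets without overlap is not given.

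All 3 probe sets were bright enough to be tested in the fit across 30590 probe sets, and all 3 passed its threshold (limma, Benjamini-Hochberg adjusted over all tested, 0.05). In that fit 37.0% of probe sets passed, 14.2% as higher and 22.9% as lower in heat. Since this same contrast led to the choice of the pair, nothing about the pair is read from these counts or from passing the threshold. PEAMT1 missed the threshold with unmoderated t statistics, where its SE was 0.14, while both SAHH probe sets passed (SE of the brighter 0.05). On the deposited scaling the median log2 difference over all tested probe sets was -0.15. This lean depended on the scaling. The median was -0.06 under quantile normalization, with 4626 higher and 6291 lower. It was -0.03 under median centring (5033 higher, 4958 lower) and -0.02 under cyclic loess (5078 higher, 5463 lower). Quantile normalization gives all arrays the same distribution, median centring sets the array medians equal and cyclic loess centres the arrays on each other. A median near 0 there follows largely from the method and does not show which scaling is right. Relative to the median on the deposited scaling, SAHH stood at -0.64 on its brighter and -0.82 on its second probe set, and PEAMT1 at 0.89.

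The size of the differences can be placed among all probe sets. A log2 difference at or below that of the brighter SAHH probe set was seen in 13.6% of tested probe sets, and one at or below that of its second probe set in 8.98%. A log2 difference at or above that of PEAMT1 was seen in 9.34%. Both genes were thus moderate movers on an array where many transcripts moved further. All 3 lay in the brightest of 5 equal classes of tested probe sets (6118 probe sets, signals from 1652), where the median log2 difference was -0.03. Within that class 6.90% of probe sets were at or below the brighter SAHH probe set, 4.33% at or below the second, and 12.8% at or above PEAMT1.

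**Figure D2:**
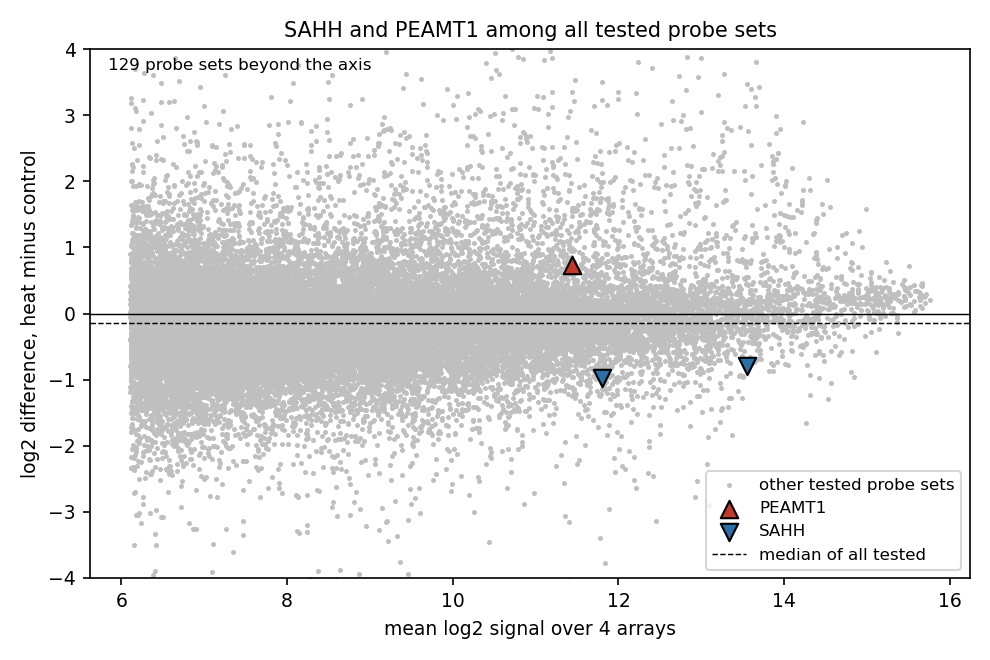
Log2 difference (heat minus control) of each tested probe set against its mean log2 signal over 4 arrays; grey points are other probe sets, upward triangles PEAMT1 and downward triangles SAHH, with the dashed line at the median of all tested (-0.15). The axis stops at 4 in each direction and leaves 129 probe sets outside; PEAMT1 (0.74) and SAHH (-0.79 and -0.97) lie at the edges of the main cloud and not among its extremes.

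Because one gene was higher and the other lower, their ratio within an array moved more than either alone. A factor that multiplies all signals of an array cancels in this ratio. The signals of different probe sets are not on one scale, so the level of the ratio has no meaning and only its difference between groups is read. The log2 of PEAMT1 minus the log2 of SAHH, on the brighter SAHH probe set, was -1.40 and -1.30 on the heat arrays, against -2.96 and -2.80 on the control arrays. The heat arrays lay apart from the control arrays by many times the distance between replicates. The pair was chosen for its opposite moves in this contrast, so a gap between groups in the ratio follows from that choice. The means were -1.35 ± 0.07 in heat and -2.88 ± 0.11 in control (SD, n = 2 each), a difference of 1.53 on the log2 scale, or a 2.89-fold higher ratio in heat. With the second SAHH probe set in its place, the difference was 1.71, a 3.28-fold higher ratio.

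The probe sets of SAHH were not interchangeable in size. The log2 of the second minus the log2 of the brighter one was -1.86 and -1.82 on the heat arrays, against -1.65 and -1.67 on the control arrays. This gap widened by 0.18 in heat, beyond the replicate SD of 0.03 in heat and 0.02 in control. It depended on the scaling. Under quantile normalization both probe sets gave a log2 difference of -1.02, and under cyclic loess they gave -0.90 (brighter) and -0.96 (second). Wheat is hexaploid with nearly identical gene copies, and the endings of all 3 probe set names mark probes that can match several transcripts, so each signal may sum several copies. Which copies each probe set reports was not tested.

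The direction of each gene held under every alternative that gave it a value, 13 for each, but most of these could not have changed it. The variance models, the filters and the replicate block leave the difference itself as it is. Groups that do not overlap also keep their sign with an offset or with 1 array left out. Only a change of scaling could have turned the direction. SAHH ranged from -1.02 to -0.67 on its brighter probe set and from -1.03 to -0.85 on its second, and PEAMT1 from 0.63 to 0.86. The difference between the genes ranged from 1.45 to 1.73. For SAHH scaling mattered most, with the brighter probe set at -1.02 under quantile normalization and at -0.67 under median centring. PEAMT1 stood at 0.86 under median centring, at 0.63 without control replicate 1 and at 0.85 without control replicate 2.

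**Figure D3:**
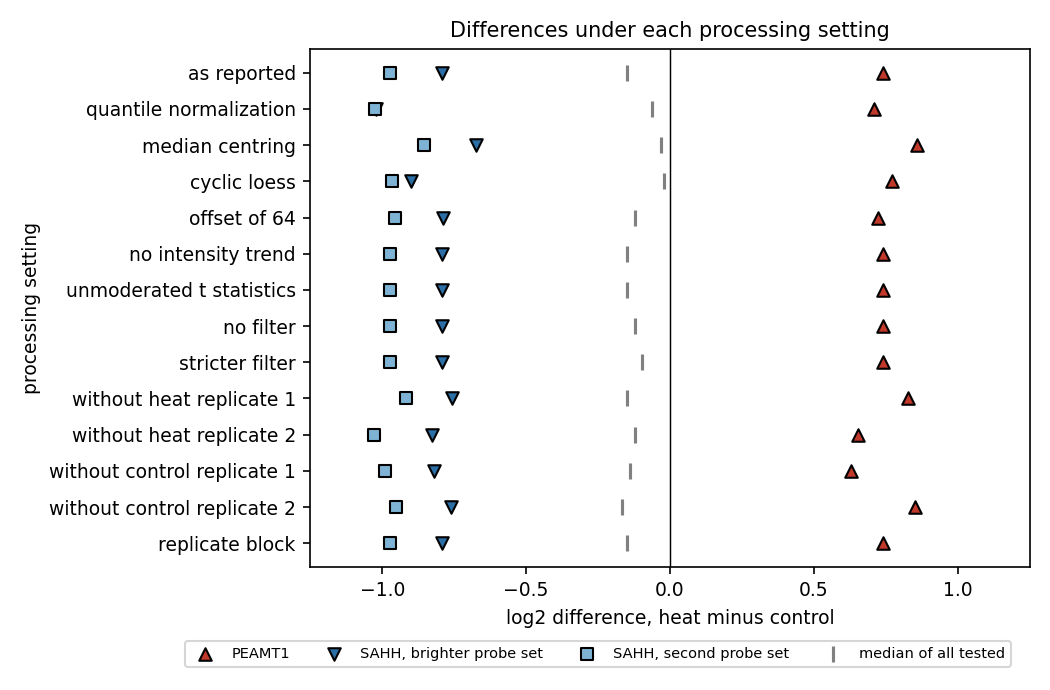
Log2 difference (heat minus control) of PEAMT1 (upward triangles), the brighter SAHH probe set (downward triangles) and the second SAHH probe set (squares) as reported and under 13 alternatives, with grey ticks at the median of all tested probe sets. PEAMT1 stays between 0.63 and 0.86 and both SAHH probe sets stay between -1.03 and -0.67, on opposite sides of 0 in each row.

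Few other genes of these pathways carry a name, as only 102 annotated genes do by symbol or gene table synonym. By their symbols and synonyms, SAHH was the only methyl cycle gene and PEAMT1 the only gene of choline and betaine synthesis. No gene for another use of S-adenosylmethionine was found by the patterns, and 1 other methyltransferase was: COMT1, a caffeic acid O-methyltransferase of lignin synthesis. COMT1 read 5164 and 5095 on the heat arrays, against 4150 and 4758 on the control arrays. Both heat arrays lay above both control arrays. The control arrays were 1.15-fold apart, near the 1.17-fold of PEAMT1, and the heat arrays 1.01-fold. Its log2 difference of 0.21 ± 0.08 (SE) did not pass (limma, adjusted p = 0.0666), so 0 of 1 methyltransferases found by the patterns passed. PIMT, a protein methyltransferase that the patterns missed and that was picked by name later, passed as higher (log2 difference 0.34 ± 0.09 SE; limma, adjusted p = 0.0204). That call was lost without heat replicate 1 (0.33), control replicate 1 (0.35) or control replicate 2 (0.32), and without the intensity trend. At an unadjusted p below 0.05 the count by the patterns was 1 of 1. The share of all tested probe sets below that level is not given. Since 37.0% passed even after adjustment, this count says little about COMT1. With median centring (0.33), the stricter filter or the replicate number as a block, COMT1 passed the adjusted threshold. Its log2 difference was 0.31 without control replicate 2.

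Named genes with the most similar profiles were sought by the distance between log2 values over the 4 arrays, each gene taken relative to its own mean, among 69 other named genes. Closest to SAHH were the histone gene H2A-9 (distance 0.17), the phytochelatin synthase gene PCS1 (0.22) and the pathogenesis-related gene PR5 (0.22). PR5, for example, read 2314 and 2228 on the heat arrays, against 4359 and 4663 on the control arrays. H2A-9 was much dimmer, at 171 and 154 in heat against 284 and 278 in control, and its difference of -0.79 had an SE of 0.22. Closest to PEAMT1 were the brightest probe set of rbcL, which encodes the large subunit of Rubisco (distance 0.17), the deoxymugineic acid synthase gene DMAS1 (0.27) and the cation channel gene TaTPC1 (0.28). TaTPC1 read 2141 and 2092 in heat, against 1443 and 1495 in control. Probe sets of some of these genes disagreed: the 12 tested ones of rbcL ran from -2.08 to 0.72 in log2 difference, the 3 of DMAS1 from -0.22 to 0.50, and the 3 of H2A-9 from -1.22 to -0.74. With 4 arrays in 2 groups, a small distance says little more than that the differences between groups were of like size.

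**Figure D4:**
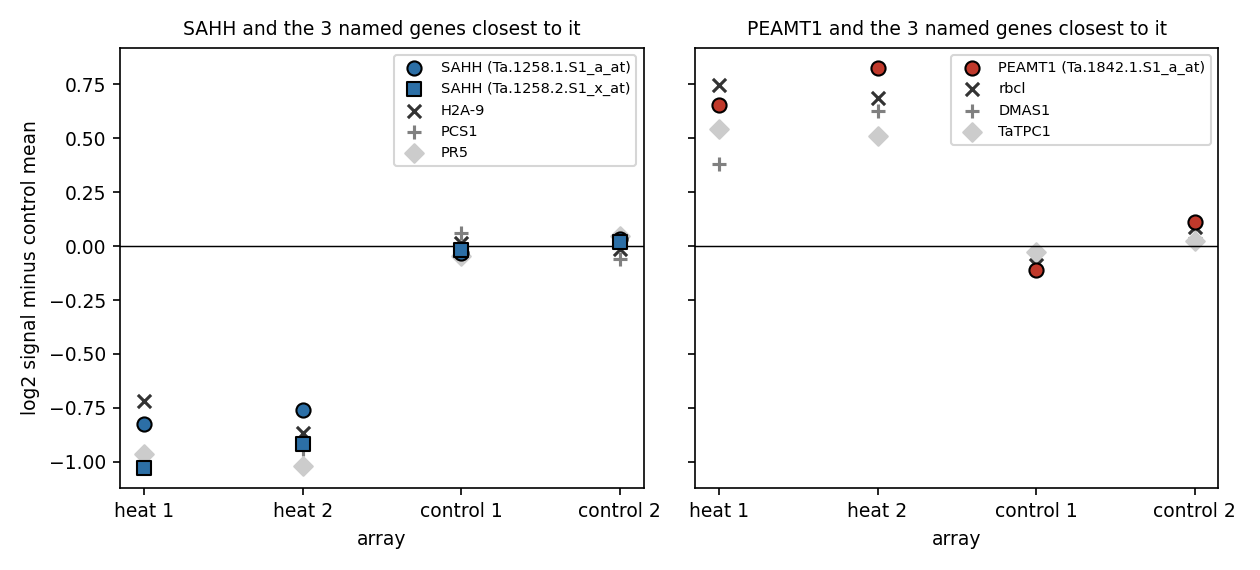
Log2 signal on each array relative to the control mean for SAHH (left, both probe sets) and PEAMT1 (right), each with the 3 named genes closest to it. The brighter SAHH probe set, H2A-9, PCS1 and PR5 lie well below 0 on both heat arrays; PEAMT1, rbcL, DMAS1 and TaTPC1 lie above 0 there, DMAS1 least on heat array 1.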

How the data were processed

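Flag leaf RNA was hybridised to 4 Affymetrix wheat arrays of 1 colour. The deposited values are MAS5 signal intensities made with Affymetrix Expression Console 1.1, per the submitters' processing notes. Its settings were not given. On each array their trimmed mean, without the lowest and highest 2%, was about 500.0, as with scaling to a common target. Of 61290 probe sets, 111 AFFX controls were left out. Log2 intensity was used with no further normalization, and the 30590 probe sets at or above the median mean log2 signal (6.11, a signal of 69.1) were tested, heat minus control, with limma 3.58.1 in R 4.3.3 (eBayes with intensity trend, Benjamini-Hochberg, 0.05; 2 residual and 5.45 prior degrees of freedom). The code was tested on simulated data. With 2 arrays a group, the smallest two-sided exact permutation p is 0.333. A gene with several probe sets was represented by its brightest.

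The members and gene lists were chosen with earlier results of these data known. Named genes were the members, the genes of the lists, and the 3 named genes closest to each member. Gene names came from the platform annotation and a RefSeq gene table (assembly IWGSC CS RefSeq v2.1). The list patterns for gene descriptions could not be used, since these tables hold none, and the grain pattern also caught GLU1A, a glucosidase gene (73.6 in heat, 50.1 in control, not tested). Detection calls were not used. Alternatives covered scaling, an offset of 64, the variance model, filters, shared probe sets, leaving out each array and a replicate block. Array number limits the precision.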

Additional observations from a re-analysis of the deposited data

How the results depend on the processing

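Over all probe sets, 11332 passed the threshold; unmoderated t statistics left 2593 and leaving out shared probe sets, with 21303 tested, left 6998. Leaving out each array in turn gave 7628 to 10665. Rises made up 38.3% of calls as reported, 50.4% with median centring and 49.2% with unmoderated t statistics. The median log2 difference was -0.15 as reported and -0.03 with median centring, which sets the array medians equal.

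The brighter SAHH probe set moved by more than its replicate SD under quantile normalization (-1.02), median centring (-0.67) and cyclic loess (-0.90), and the difference between PEAMT1 and SAHH under quantile normalization (1.73) and cyclic loess (1.67); the causes were not tested. No value of SAHH or PEAMT1 changed sign, which only a change of scaling could have brought about. Their values without shared probe sets could not be had, since all 3 probe sets are of that kind. The count of other pathway genes past the threshold, 0 of 1, became 1 with median centring, the stricter filter, the replicate block and without control replicate 2, and ranged from 0 to 1 as each array was left out.

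Replicate numbers are shared by the groups, but no label says that a number marks a common plant or day. With the replicate block 11603 probe sets passed. The values of SAHH (-0.79), PEAMT1 (0.74) and their difference (1.53) stayed the same by design. Each replicate number occurs in both groups, so the block cannot alter a difference between them. APRT turned below 0 under quantile normalization (-0.11), cyclic loess (-0.059), without heat replicate 2 (-0.031) and without control replicate 1 (-0.0082), with no call; leaving out each array in turn gave -0.031 to 0.041.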

Other observations

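A second probe set shares the cluster number of the PEAMT1 probe set in its name, Ta.1842.2.S1_at, but has no gene in the annotation used here, so it is not counted as PEAMT1. It was picked for its name. It read 15379 and 13905 on the heat arrays, against 9772 and 10162 on the control arrays. Both heat arrays were above both control arrays, and the log2 difference was 0.55 ± 0.06 (SE; limma, adjusted p = 0.000388). It was positive under 14 of 14 alternatives (0.30 to 0.67), of which only the changes of scaling could have turned the sign. It missed the threshold with unmoderated t statistics, and adjusted p over the alternatives ran from 0.000189 to 0.0934.

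A further 3 genes near the methyl cycle were picked by name once the annotation had been read. PIMT, a protein methyltransferase that repairs aged aspartyl residues and uses the same methyl donor, read 1142 and 1130 on the heat arrays, against 909 and 891 on the control arrays. It rose by a log2 difference of 0.34 ± 0.09 (SE; limma, adjusted p = 0.0204) and passed under 10 of 14 alternatives (adjusted p from 0.00599 to 0.107). Its call was lost without the intensity trend (adjusted p = 0.0745) and without heat replicate 1 (0.051), control replicate 1 (0.0856) or control replicate 2 (0.107).

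AdSS, adenylosuccinate synthase of purine nucleotide synthesis, read 3489 and 3464 in heat, against 4371 and 3858 in control. It fell by a log2 difference of -0.24 ± 0.07 (SE; limma, adjusted p = 0.038), a call that held under 7 of 14 alternatives. It was lost with median centring (-0.12, adjusted p = 0.385), with no filter, without the intensity trend, with unmoderated t statistics, and without heat replicate 1, heat replicate 2 or control replicate 1 (-0.25, -0.24 and -0.15). APRT, which salvages adenine, averaged 7583 ± 265 in heat and 7555 ± 97.2 in control (SD, n = 2 each). Its groups overlapped, and it did not pass (log2 difference 0.005, adjusted p = 0.955 in limma).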
